A study of Gallus gallus with 38 samples.

Results

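Collagen chain genes were taken as the probe sets whose single platform symbol was COL, a number, A and a number, which gave 36 probe sets and, with the probe set of the highest mean over all arrays kept for each gene, 33 genes of 11528 with a single symbol. Of these, 5 encode fibrillar chains, 5 encode the type IV chains of basement membranes, and 23 encode other chains. The cecum mucosa and the jejunum mucosa of 19 male Ross 308 broilers, taken as both tissues of each bird, were measured on 38 chicken whole-transcript arrays, 19 per tissue, at slaughter on day 42 (6 weeks in the labels). All birds received the same standard commercial diet and vaccinations, and the mucosa was scraped from the rinsed gut, so a sample holds epithelium together with whatever lamina propria, muscle and vessel tissue the scraping took. The labels speak of 38 sampled birds but number them 1 to 19 in each tissue, and the study's methods give 19 subjects with both tissues, so every count of birds and every comparison within birds rests on equal numbers being the same bird. A description field names oxyntic mucosa, the lining of the glandular stomach, for every sample, whereas the title, the source and the tissue field name cecum or jejunum. The 6 genes listed as cecum markers were all higher in cecum and the 6 listed as jejunal epithelium markers were all higher in jejunum. On the log2 scale, the average of the 6 cecum genes within an array was 7.80 to 8.98 in cecum and 3.76 to 5.46 in jejunum. That of the 6 jejunal genes was 3.90 to 7.19 in cecum and 9.07 to 11.7 in jejunum. Both lists were chosen with earlier results of these data known, so their direction is no independent check of the labels.

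A collagen molecule is a triple helix of 3 chains, which may be copies of one gene product or a mixture of several. Fibrillar chains (types I, V, XI and XXIV among those measured here) assemble into the banded fibers that give the gut wall its tensile strength, and type IV chains assemble into the sheet under epithelium, around smooth muscle cells and around vessels. The other chains decorate fibrils (types XII and XIV), form beaded filaments near cells (type VI), build short-chain networks (types VIII and X), sit at the border of basement membranes (types XV and XVIII) or span the cell membrane (types XIII, XVII, XXIII and XXV). In the gut most chains are made by fibroblasts and smooth muscle cells, and type XVII by epithelium.

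Values are deposited log2 signals, differences are cecum minus jejunum on the log2 scale with the SE of limma, every p of the tissue comparison carries the Benjamini-Hochberg adjustment over the 18308 probe sets of the array, and a difference of 1 is a fold change ratio (FCR) of 2. A chain was called at any fold at an adjusted p under 0.05, and was called a differentially expressed transcript (DET) where the FCR was also at least 2. Signals of different genes are not set against each other, since each probe set has its own scale. In scraped tissue, fewer cells of a type and less RNA per cell cannot be told apart.

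Most called collagen chains were higher in cecum. The DETs in cecum were 5 of the 33 chains (15.2%), namely *COL1A2*, *COL6A1*, *COL6A2*, *COL12A1* and *COL18A1*, against 3.62% of all probe sets. The only DET in jejunum was *COL17A1* (3.03% of the chains, against 3.68% of all probe sets, a share near that of the whole array). At any fold, 17 chains (51.5%) were higher in cecum and 1 (3.03%) in jejunum, against 25.1% and 20.1% of all probe sets. The median difference over the 33 chains was 0.28, and over all probe sets it was 0.03. It was 0.84 for the fibrillar chains, of which 4 of 5 were called in cecum, 0.75 for the type IV chains, of which 4 of 5 were called in cecum, and 0.20 for the other chains, of which 9 of 23 were called in cecum and 1 in jejunum. However, 16 of the 33 chains had a mean signal under 5 in both tissues, and most of these were other chains. Their median difference was 0.10, with 3 called in cecum and no DET. The classes were not compared at equal signal, so their medians are not read as a contrast between classes.

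**Figure D1:**
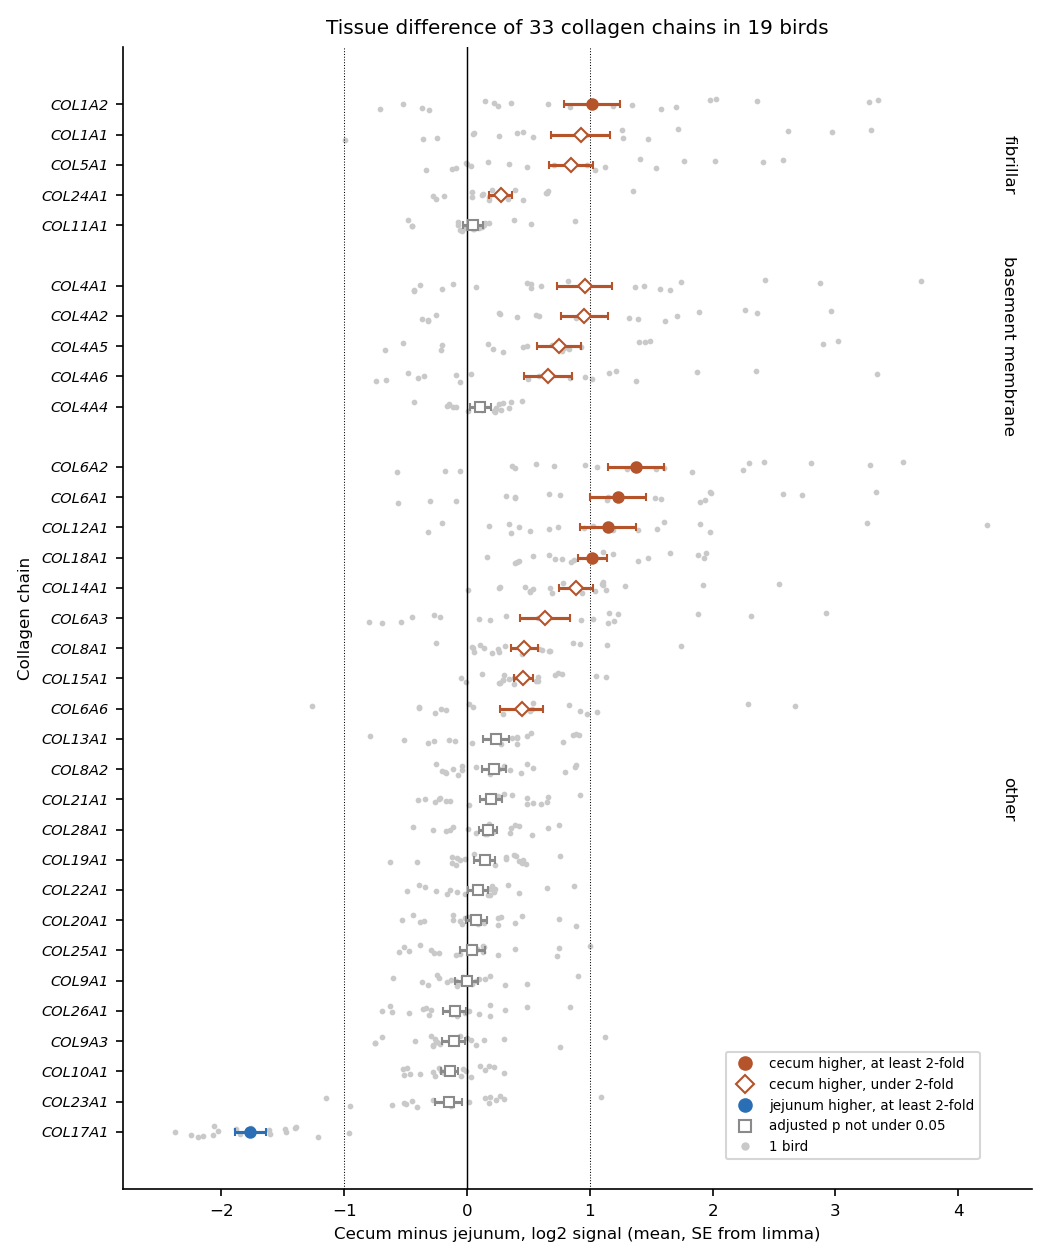
Cecum minus jejunum difference of each of the 33 collagen chains on the log2 scale (x axis), grouped as fibrillar, basement membrane and other chains down the page; large symbols are means with the SE from limma, filled where the difference was at least 2-fold, and each grey point is 1 bird. A total of 17 chains lay on the cecum side with an adjusted p under 0.05, while *COL17A1* alone lay on the jejunum side with a mean of -1.76.

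The count of 5 DETs depended on chains whose difference lay close to 1, and it was 2 without bird 6, 3 without bird 2, 3 without bird 3 and 8 without bird 19. *COL1A2* was no DET without bird 1, 2, 3, 4, 6, 15 or 18, nor was *COL18A1* without bird 2, 3, 6, 10 or 11.

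The 2 chains of type I collagen, the main fibril former of connective tissue, were both higher in cecum. The *COL1A1* signal had a lowest, median and highest value of 10.39, 11.28 and 12.11 in cecum, against 7.82, 10.39 and 11.66 in jejunum. The tissues overlapped, with 5 cecal arrays above the highest jejunal one, and the low end was set by jejunal arrays. The difference was 0.93 ± 0.24 (adjusted p = 0.00135, limma), and the cecum was higher in 16 of 19 birds. For *COL1A2* the lowest, median and highest signals were 7.88, 8.65 and 9.54 in cecum, against 5.62, 7.78 and 9.20 in jejunum. The difference was 1.02 ± 0.23 (adjusted p = 2.21e-04) with the cecum higher in 15 birds, so the 2 chains stood on opposite sides of the 2-fold limit with nearly equal differences. Set against each other within birds, the difference of *COL1A1* minus that of *COL1A2* was -0.09 ± 0.083 (SE over 19 birds, permutation test of signs, adjusted p = 0.337). *COL1A2* has a second, dimmer probe set, where the difference was 0.20 ± 0.14 (adjusted p = 0.248) and the cecal median was 3.37 against 3.15 in jejunum, so that this probe set was not called, and the average of both gave 0.61 (adjusted p = 0.00111). With that average the difference of *COL1A1* exceeded that of *COL1A2* by 0.32 (adjusted p = 0.0499), so the direction between the 2 chains depends on the probe sets used.

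Among the other fibrillar chains, *COL5A1*, whose type V molecules start fibrils and limit their width, had a lowest, median and highest signal of 6.08, 6.55 and 7.44 in cecum, against 4.26, 5.80 and 7.24 in jejunum. It was higher in cecum by 0.84 ± 0.18 (adjusted p = 1.42e-04), in 14 birds. The minor fibrillar chain *COL24A1* was higher in cecum by a smaller step. Its signals were 4.52, 5.07 and 6.05 in cecum, against 4.51, 4.83 and 5.27 in jejunum, and the difference of 0.28 ± 0.094 (adjusted p = 0.0148) was seen in 16 birds. This call was lost without birds 3 and 19, whose arrays correlated least with those of their tissue (0.20, adjusted p = 0.0573). *COL11A1*, best known from cartilage, was not called (0.05 ± 0.082, adjusted p = 0.646).

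**Figure D2:**
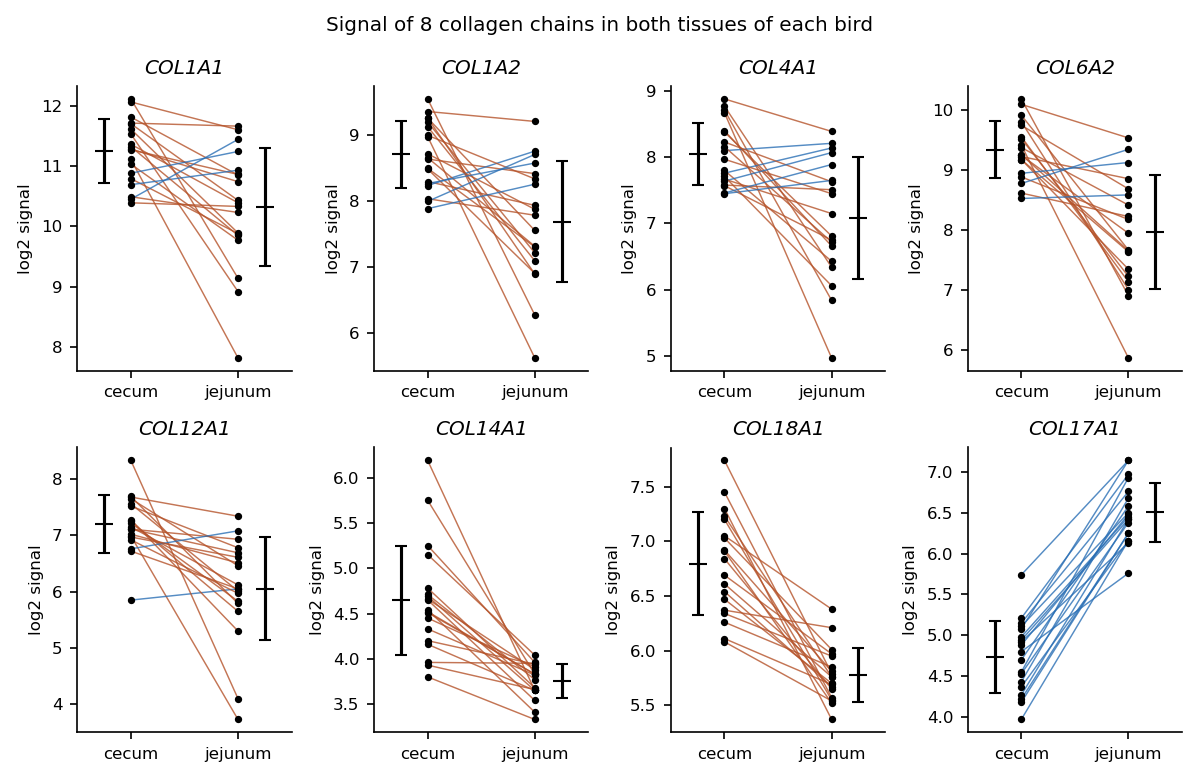
Log2 signal (y axis, own scale in each panel) of 8 collagen chains in cecum (left) and jejunum (right), with a line joining the 2 tissues of each of the 19 birds, orange where the cecum was higher and blue where the jejunum was; bars beside the points give the mean ± SD. For *COL1A1* the jejunal signals spread over 7.82 to 11.66, while for *COL17A1* every line rose to the jejunum with no overlap between the tissues.

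The type IV chains fell into a called group and 1 uncalled chain. *COL4A1* and *COL4A2* make the type IV molecule found in nearly all basement membranes. *COL4A1* had signals of 7.45, 7.97 and 8.88 (lowest, median and highest) in cecum, against 4.97, 7.15 and 8.39 in jejunum, and *COL4A2* had 6.24, 6.96 and 7.70 in cecum, against 4.63, 5.99 and 7.44 in jejunum. In both genes the ranges of the tissues overlapped, but the jejunal one reached well below the lowest cecal array. Above the highest jejunal array stood 5 cecal arrays for *COL4A1* and 2 for *COL4A2*. Their differences were 0.96 ± 0.22 (adjusted p = 4.15e-04, cecum higher in 14 birds) and 0.96 ± 0.19 (adjusted p = 5.88e-05, 15 birds), and the difference of *COL4A1* minus that of *COL4A2* was 0.004 ± 0.066 (permutation test of signs, adjusted p = 0.963).

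*COL4A5* and *COL4A6* join in the type IV molecule of smooth muscle basement membranes, as known from mammals. *COL4A5* had signals of 5.43, 6.07 and 7.17 in cecum, against 4.09, 5.28 and 6.89 in jejunum, and was higher in cecum by 0.75 ± 0.18 (adjusted p = 5.69e-04, 15 birds). *COL4A6* had 4.55, 5.80 and 7.00 in cecum, against 3.66, 5.12 and 6.32 in jejunum, and was higher in cecum by 0.66 ± 0.20 (adjusted p = 0.00524), but only in 12 birds. The differences of *COL4A1* and *COL4A2* exceeded that of *COL4A6* by 0.30 each, without passing (permutation test of signs, adjusted p = 0.0629 and 0.0549). They exceeded that of *COL4A5* by 0.21 and 0.20 (adjusted p = 0.138 and 0.119). Without birds 3 and 19 these gaps all passed (adjusted p of 0.00659 to 0.0207). By signed ranks only those to *COL4A6* did (adjusted p = 0.0472 each). *COL4A4*, a chain that mammals use in the filter of the kidney, had 3.36, 3.74 and 4.26 in cecum, against 3.20, 3.53 and 4.22 in jejunum, and was not called (0.11 ± 0.085, adjusted p = 0.322). The difference of *COL4A4* fell short of those of *COL4A1* (by 0.85 ± 0.28, adjusted p = 0.0130), *COL4A2* (by 0.85 ± 0.24, adjusted p = 0.00684) and *COL4A5* (difference of -0.64 ± 0.23, adjusted p = 0.0162), while against *COL4A6* the test did not pass (-0.55 ± 0.26, adjusted p = 0.0687). These were among 19 pairs of chains of one type that were tested, with p adjusted over the 19. *COL4A4* was dim, with means of 3.68 in cecum and 3.57 in jejunum. At such signals a missed difference cannot be told from a gene that was not expressed, so its shortfall is not read further.

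Type VI collagen held the largest cecum differences among the chains, and its 4 measured chains were all called in cecum with a median difference of 0.93. *COL6A1*, *COL6A2* and *COL6A3* assemble together into the beaded filaments that lie between cells and fibrils. The *COL6A2* signals were 8.52, 9.25 and 10.18 in cecum, against 5.86, 7.94 and 9.53 in jejunum, a difference of 1.37 ± 0.23 (adjusted p = 2.71e-06, FCR 2.59). The *COL6A1* signals were 8.15, 8.76 and 9.61 in cecum, against 5.28, 7.62 and 8.97 in jejunum, a difference of 1.23 ± 0.23 (adjusted p = 1.57e-05, FCR 2.35). For each of these 2 chains the cecum was higher in 16 birds, and 6 cecal arrays stood above the highest jejunal one.

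*COL6A3* moved less than its partners. Its signals were 7.69, 8.26 and 9.16 in cecum, against 5.70, 7.77 and 9.20 in jejunum, with the highest array of all in jejunum, and the difference was 0.63 ± 0.20 (adjusted p = 0.00987, cecum higher in 13 birds). The difference of *COL6A1* exceeded that of *COL6A3* by 0.60 ± 0.051 and that of *COL6A2* exceeded it by 0.74 ± 0.067, in 19 of 19 birds each (permutation test of signs, p = 1e-05, the smallest that 100000 permutations can give, adjusted p = 9.50e-05). *COL6A1* itself moved slightly less than *COL6A2* (-0.14 ± 0.044, adjusted p = 0.0130). Probe sets differ in how fully they follow a change in RNA, and whether this plays a part in these gaps was not tested.

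*COL6A6*, which in mammals can take the place of the alpha 3 chain, had signals of 5.92, 6.37 and 6.97 in cecum, against 4.30, 5.90 and 7.38 in jejunum. The cecal arrays lay inside the jejunal range, and the difference was 0.44 ± 0.18 (adjusted p = 0.0361, 13 birds). With the bird as a block, adjusted p was 0.0593 and the call was lost, as it was without bird 2, 4, 6, 11, 13, 14, 15 or 18 (differences of 0.32 to 0.44, adjusted p of 0.0503 to 0.103). Its second probe set gave the same step without a call (0.45 ± 0.20, adjusted p = 0.0574). The difference of *COL6A6* was below that of *COL6A1* by 0.79 ± 0.17 (adjusted p = 0.00209) and below that of *COL6A2* by 0.93 ± 0.18 (adjusted p = 0.00127). Against *COL6A3*, the gap of 0.19 ± 0.14 did not pass (adjusted p = 0.263).

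Of the 8 measured chains that sit on fibrils with an interrupted helix, 2 were called in cecum (25%, against 25.1% of all probe sets). That share is near the one of the whole array. The 2 chains were *COL12A1* and *COL14A1*, which both coat type I fibrils. The *COL12A1* signals were 5.85, 7.15 and 8.33 in cecum, against 3.73, 6.05 and 7.34 in jejunum, and the difference was 1.15 ± 0.23 (adjusted p = 4.72e-05, FCR 2.21, 17 birds). Without bird 6 it was 0.97 (adjusted p = 1.28e-04) and *COL12A1* was no DET. *COL14A1* had signals of 3.80, 4.54 and 6.19 in cecum, against 3.33, 3.82 and 4.04 in jejunum. A total of 16 cecal arrays stood above the highest jejunal one, the cecum was higher in 19 of 19 birds (4.69% of all probe sets were higher in the cecum of every bird), and the difference was 0.89 ± 0.14 (adjusted p = 8.88e-07). Unlike for most called chains, the spread of *COL14A1* was wider in cecum (SD 0.60) than in jejunum (SD 0.19, n = 19 each). Its signals were low, with means of 4.64 in cecum and 3.75 in jejunum. Whether the low jejunal signal plays a part in the narrow spread there was not tested.

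Both multiplexins, the proteoglycan collagens at the border of basement membranes, were higher in cecum. *COL18A1*, whose cut C-terminal end is endostatin, had signals of 6.08, 6.84 and 7.74 in cecum, against 5.37, 5.76 and 6.38 in jejunum. Among the chains called in cecum this was the smallest adjusted p, with a difference of 1.02 ± 0.12 (adjusted p = 1.17e-09, FCR 2.03), the cecum higher in 19 of 19 birds and 14 cecal arrays above the highest jejunal one. Its second probe set was also called, with a difference of 0.67 ± 0.12 (adjusted p = 5.43e-06), and the average of both was 0.84 (adjusted p = 8.41e-09), below 2-fold. *COL15A1* had 2.77, 3.16 and 3.73 in cecum, against 2.43, 2.61 and 3.05 in jejunum, at the low end of the array's signals, and was higher in cecum by 0.46 ± 0.076 (adjusted p = 2.56e-06, 17 birds).

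In the short-chain networks, *COL8A1*, a chain of vessel walls and of the cornea, had 3.58, 4.34 and 5.05 in cecum, against 3.26, 3.80 and 4.65 in jejunum, and was higher in cecum by 0.46 ± 0.11 (adjusted p = 4.92e-04) in 18 birds. Its partner *COL8A2* was not called (0.22 ± 0.097, adjusted p = 0.0622), but passed with the bird as a block (adjusted p = 0.0395). The difference between the 2 chains was 0.25 ± 0.10 (13 birds, permutation test of signs, adjusted p = 0.0534).

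*COL17A1* went the other way. It encodes a collagen that spans the membrane of epithelial cells and ties them to the basement membrane at hemidesmosomes. Its signals were 3.97, 4.80 and 5.74 in cecum, against 5.76, 6.45 and 7.14 in jejunum. The highest cecal array lay just below the lowest jejunal one, as for 1.73% of all probe sets, and *COL17A1* was the only chain whose tissues did not overlap in either direction. The difference was -1.76 ± 0.13 (adjusted p = 1.74e-15, FCR 3.40 towards jejunum), with the jejunum higher in 19 of 19 birds (4.91% of all probe sets) and single birds between -0.96 (bird 12) and -2.38 (bird 10). The other 3 measured transmembrane chains, *COL13A1*, *COL23A1* and *COL25A1*, were not called.

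The 15 uncalled chains were *COL4A4*, *COL8A2*, *COL9A1*, *COL9A3*, *COL10A1*, *COL11A1*, *COL13A1*, *COL19A1*, *COL20A1*, *COL21A1*, *COL22A1*, *COL23A1*, *COL25A1*, *COL26A1* and *COL28A1*. Their differences lay between -0.15 and 0.23, with adjusted p between 0.0504 and 0.987, and 13 of them had a mean signal under 5 in both tissues. Several are known from cartilage (*COL9A1*, *COL9A3*, *COL10A1* and *COL11A1*). For signals this low, a missed difference cannot be told from a gene that was not expressed. A further 12 chains of the hand-written classes, among them *COL3A1*, *COL5A2*, *COL4A3* and *COL7A1*, were not analysed here.

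The size of the cecum excess differed widely between birds. Of the 17 chains called in cecum, all 17 were higher in cecum in 7 birds, and more than not in 15 birds. In the remaining 4 birds fewer were higher than not, with 8 of 17 in bird 9, 5 in bird 16, 5 in bird 17 and 8 in bird 19. The median difference of the 17 chains within a bird lay between -0.30 (bird 17) and 2.92 (bird 2). By class, the mean difference of the called chains was above 0 in 15 birds for the fibrillar, in 14 for the type IV and in 18 for the other chains. These 4 birds are not set apart as a group, since they were seen only through the chains themselves. *COL17A1* was lower in cecum in every bird. Its difference in birds 9, 16, 17 and 19 was -2.03, -2.07, -2.15 and -2.19, against a mean of -1.76 over all birds. In the 7 birds with all 17 chains higher in cecum it lay between -1.21 (bird 18) and -2.25 (bird 15). Whether the difference of *COL17A1* varied with that of the other chains was not tested.

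The jejunum was the more variable tissue for most chains called in cecum. The SD was larger in jejunum than in cecum for 11 of the 17 chains called in cecum, such as *COL1A1* (SD 0.53 in cecum and 0.98 in jejunum), *COL6A1* (SD 0.43 and 0.96) and *COL12A1* (SD 0.51 and 0.92), and over all 33 chains this held for 16. The exceptions among the called chains included *COL18A1* (SD 0.47 in cecum and 0.25 in jejunum). The share of all probe sets with a larger SD in jejunum was not computed, so these counts are not read as a trait of collagen chains. Levels in the 2 tissues of one bird were also compared. No chain passed a permutation test of Pearson's r between cecum and jejunum adjusted over all probe sets, of which 22 (0.12%) passed. An unadjusted p under 0.05 was found for 4 chains, *COL4A4* (r = 0.60), *COL17A1* (r = 0.56), *COL4A5* (r = -0.48) and *COL4A6* (r = -0.47), and for 2 chains by Spearman's rho. Without birds 3 and 19 it was found for 2 chains, and *COL17A1* was not among them (r = 0.38, unadjusted permutation p = 0.134). The median r was -0.04 over the 33 chains and 0.11 over all probe sets.

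Within a tissue, many but not all pairs of chains of one type varied together across birds. Pearson's r was computed for 19 pairs of chains of one type in each tissue, 38 relations in all, with two-sided p from 100000 permutations adjusted over the 38. A total of 11 pairs passed in cecum and 13 in jejunum, all with r above 0. For *COL1A1* and *COL1A2*, r was 0.75 in cecum (rho 0.70, adjusted p = 5.97e-04, r = 0.70 without the 2 birds farthest from the *COL1A1* median) and 0.96 in jejunum (rho 0.96, adjusted p = 2.24e-05, r = 0.96 without 2 birds). For *COL4A1* and *COL4A2*, r was 0.96 in cecum (rho 0.95, r = 0.95 without 2 birds) and 0.96 in jejunum (rho 0.99, r = 0.97 without 2 birds). For *COL4A5* and *COL4A6*, r was 0.93 in both tissues (rho 0.93 in cecum and 0.92 in jejunum, r = 0.90 and 0.87 without 2 birds). In the RefSeq annotation each of these type IV pairs, like *COL6A1* with *COL6A2*, lies side by side with 0 protein-coding genes between.

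In type VI, the trio of *COL6A1*, *COL6A2* and *COL6A3* had r of 0.92 to 0.95 in cecum and of 0.98 in jejunum for its 3 pairs (adjusted p = 2.24e-05 each, rho 0.88 to 0.96 in cecum and 0.98 in jejunum, and r of at least 0.88 in cecum and 0.97 in jejunum without 2 birds). *COL6A6* had r of 0.32 to 0.54 with them in cecum, where its pair with *COL6A3* passed by r (adjusted p = 0.0290) but not by rho (0.49, adjusted p = 0.0537) and the other 2 did not, and of 0.77 to 0.83 in jejunum, where all 3 passed. *COL4A4* passed by r with no other type IV chain in either tissue, but with *COL4A5* in cecum by rho (0.51, adjusted p = 0.0434, r = 0.47, adjusted p = 0.0645). *COL8A1* and *COL8A2* had r of 0.11 in both tissues, and *COL9A1* with *COL9A3*, at 0.49 in cecum (adjusted p = 0.0645), had rho of 0.04 and r of -0.15 without 2 birds. The labels and files name no batch, so these relations could not be repeated within one.

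**Figure D3:**
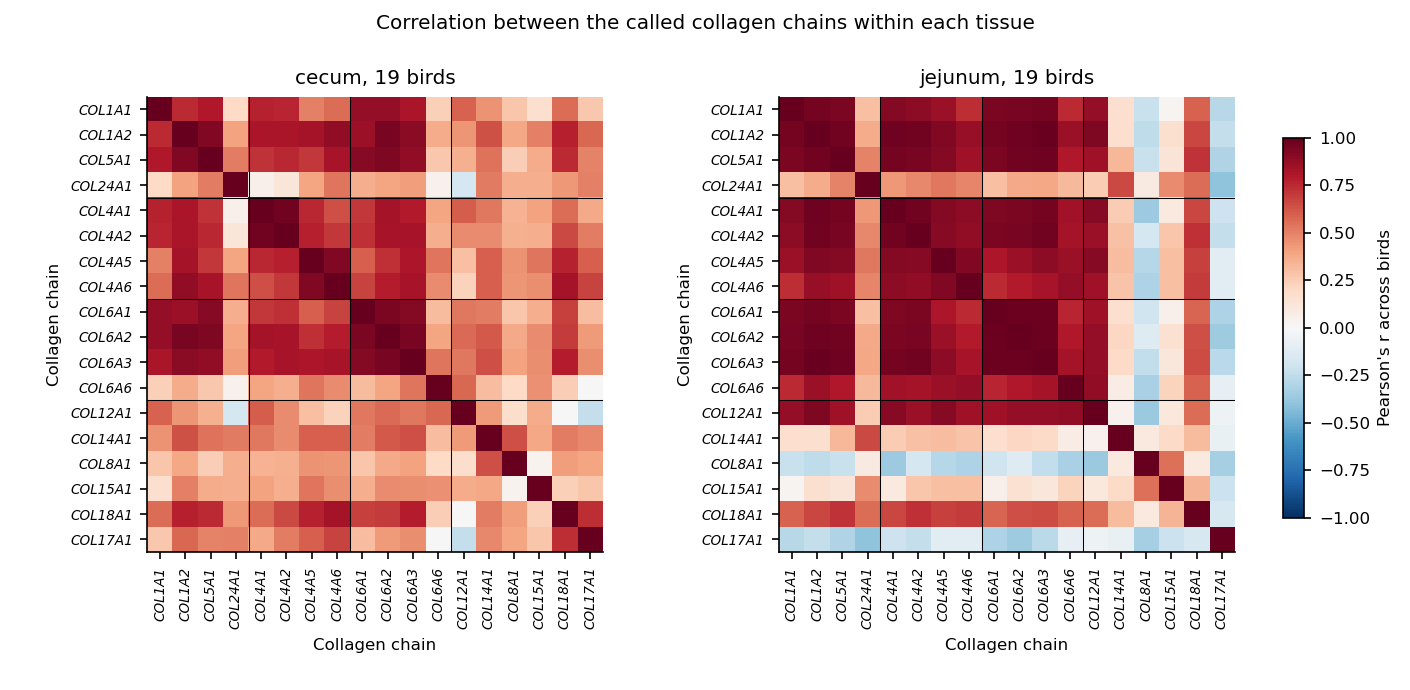
Pearson's r across the 19 birds (colour, -1 to 1) between the 18 called collagen chains, within cecum (left) and within jejunum (right), with black lines between fibrillar, type IV, type VI and the remaining chains. Types I, IV, V and VI form a dark block in jejunum, while the *COL17A1* row is mostly red in cecum and pale blue in jejunum.

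Covariation also crossed the types, so it was not particular to chains of one molecule. *COL1A1* with *COL6A2* had r of 0.88 in cecum and 0.95 in jejunum, against 0.75 and 0.96 with *COL1A2*. Over the 136 pairs of the 17 chains called in cecum, the median r was 0.54 in cecum and 0.71 in jejunum, above 0 in 135 and 124 pairs, with the birds, arrays and scaling shared by all pairs. The 105 pairs of uncalled chains had a median r of 0.53 in cecum, above 0 in 103 pairs, and of 0.17 in jejunum, above 0 in 82 pairs. In cecum the medians of called and uncalled chains were close. However, the cecal array of bird 3 held the highest cecal signal of most uncalled chains, such as *COL9A3* (5.71), *COL22A1* (4.76) and *COL26A1* (5.02). Without birds 3 and 19, r of *COL9A1* with *COL9A3* in cecum was -0.014, against 0.49 with all birds. Whether called chains stand apart in cecum thus cannot be read from these medians. *COL17A1* stood differently in the 2 tissues. Its r with the 17 chains had a median of 0.47 in cecum, above 0 for 15 of them, and of -0.24 in jejunum, where it was above 0 for none. These medians are descriptions, and the difference between the tissues was not tested. They include the cecal array of bird 3, which had the lowest mean r with the other cecal arrays (0.92) and the highest cecal *COL17A1* signal (5.74). The medians were not repeated without it.

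Most markers of the cells that make collagen moved in the same direction. All 5 measured smooth muscle markers (*ACTG2*, *MYH11*, *TAGLN*, *MYLK* and *SYNPO2*, proteins of the contractile apparatus) were DETs in cecum, with differences of 1.13 to 1.80. Their mean signal was 8.56 ± 0.43 in cecum (7.66 to 9.45) and 7.15 ± 0.85 in jejunum (5.30 to 8.65, SD, n = 19 each), and it was higher in cecum in 18 birds, with bird differences between -0.008 (bird 19) and 3.20 (bird 1). The shares of all probe sets called at any fold, 25.1% in cecum and 20.1% in jejunum, and of DETs, 3.62% and 3.68%, are the background for these lists. Of 11 measured fibroblast markers 6 were DETs in cecum and 8 were called there at any fold. The other 3 were not called and lay slightly towards jejunum (*PRRX1* -0.10, *DPEP1* -0.23 and *PI16* -0.10). Their list mean within an array was 5.79 to 6.46 in cecum and 4.44 to 6.01 in jejunum. Of 9 endothelium markers 1 was a DET and 5 were called in cecum. Epithelium markers were called in cecum in 6 of 7, and their list mean within an array was 8.75 to 9.36 in cecum and 8.08 to 8.91 in jejunum. Lymphocyte markers were called in jejunum in 9 of 12. Of 7 markers of enteric glia and neurons, 4 were called in cecum and 2 in jejunum, with 1 DET in cecum. The lowest tissue mean of any listed marker was 2.03, for a fibroblast gene.

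Many of the chains called in cecum followed those markers across birds, more of them in jejunum. Each of the 33 chains was set against 3 marker means in both tissues, 198 relations chosen after seeing the data. Of the 17 chains called in cecum, 6 passed with r above 0 against the smooth muscle mean in cecum (median r 0.50) and 13 in jejunum (median r 0.88). Against the fibroblast mean, 11 passed in cecum (median r 0.67) and 13 in jejunum (median r 0.83). By Spearman's rho, 9 chains passed against the smooth muscle mean in cecum and 12 in jejunum, and 9 in cecum and 13 in jejunum against the fibroblast mean. Without the 2 birds farthest from the median of the marker mean, 3 chains passed in cecum against each mean (median r 0.19 for smooth muscle and 0.51 for fibroblasts) and 11 and 12 chains passed in jejunum, with 17 birds left. Without birds 3 and 19 instead, 9 of all 33 chains passed in cecum against the smooth muscle mean and 12 against the fibroblast mean. With all birds these counts over the 33 chains were 6 and 11. The 12 included the uncalled *COL19A1* (permutation test, adjusted p = 0.0372). The cecal counts thus depended on which birds were included. Against the epithelium mean none of the 33 chains passed with r above 0, and 3 passed with r below 0 in jejunum. They were *COL4A5*, *COL4A6* and the uncalled *COL19A1* (r = -0.63, permutation test, adjusted p = 0.0197). None of the 3 passed by rho (adjusted p = 0.140, 0.191 and 0.148). Without the 2 farthest birds *COL19A1* passed (adjusted p = 0.0343), and *COL4A5* and *COL4A6* did not (adjusted p = 0.0580 and 0.116). All 3 passed without birds 3 and 19 (r = -0.61, -0.64 and -0.64, permutation test, adjusted p = 0.0362, 0.0234 and 0.0268). *COL17A1* passed with none of the 3 means. *COL14A1*, *COL15A1*, *COL8A1* and *COL24A1* passed with neither smooth muscle nor fibroblast markers in either tissue. Among the uncalled chains, *COL13A1* passed in jejunum against the smooth muscle and fibroblast means (r = 0.62 and 0.79). *COL9A3* passed there with r below 0 (-0.58 and -0.59). None of these relations passed without the 2 farthest birds. The share of all probe sets that pass against the same means was not computed, so these counts are not read as a trait of collagen chains. The part of muscle or fibroblast content in the tissue differences of the chains was not tested.

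**Figure D4:**
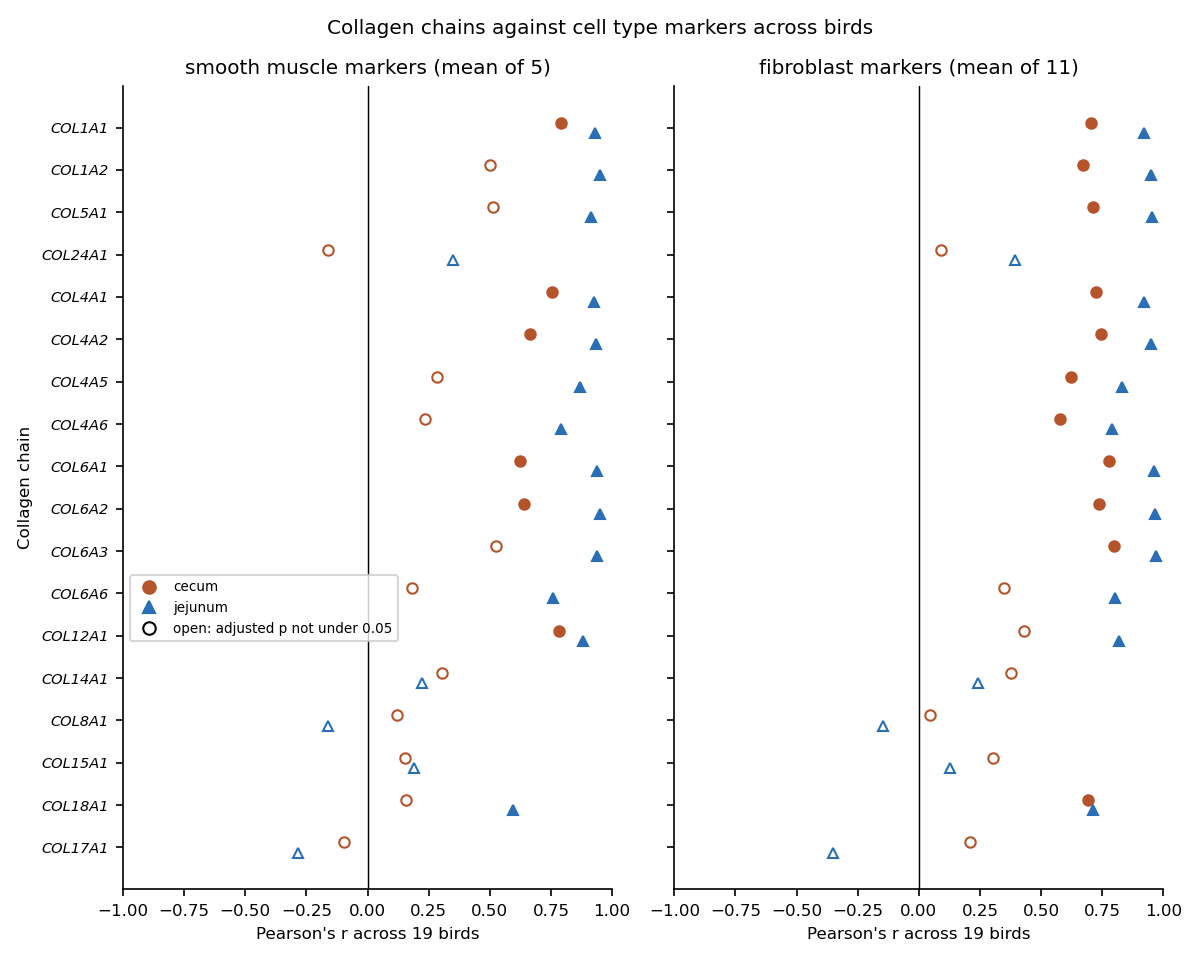
Pearson's r across 19 birds (x axis) of each of the 18 called collagen chains with the mean log2 signal of 5 smooth muscle markers (left) and of 11 fibroblast markers (right), in cecum (orange circles) and jejunum (blue triangles); filled symbols had an adjusted p under 0.05 over 198 relations. Of the 17 chains called in cecum, 6 (left) and 11 (right) had filled circles and 13 in each panel had filled triangles, and *COL17A1* had none.

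The genes that make, join, bind and remove collagen were described through 6 hand-written lists, of which 75 of 112 genes were measured. They held 11 DETs in cecum (14.7%) and 5 in jejunum (6.67%), and 40 (53.3%) were called in cecum and 10 (13.3%) in jejunum at any fold, against the shares of all probe sets given for the chains. Of 20 genes that modify and fold procollagen, 9 were called in cecum and 3 in jejunum, with a median difference of 0.16. The only DET among them was *SERPINH1*, the procollagen chaperone HSP47, with means of 8.74 ± 0.50 in cecum and 7.52 ± 0.90 in jejunum (SD, n = 19 each) and a difference of 1.22 ± 0.22 (adjusted p = 1.23e-05, 15 birds).

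Among 12 genes of procollagen processing and cross-linking the DETs split between the tissues. *TLL2*, a protease of the family that trims the C-terminal end of procollagen, averaged 7.64 ± 0.51 in cecum and 4.72 ± 0.43 in jejunum, a difference of 2.93 ± 0.15 (adjusted p = 1.09e-20, 19 birds). *PXDN*, the peroxidase that cross-links type IV collagen, was higher in cecum by 1.07 ± 0.18 (adjusted p = 4.54e-06, 19 birds), and by less than 2-fold without bird 2 (0.94) or bird 6 (0.95). The meprin subunits *MEP1A* and *MEP1B*, proteases of the intestinal brush border that can also trim procollagen, were higher in jejunum, with differences of -6.75 ± 0.23 and -5.53 ± 0.20 (adjusted p = 2.41e-26 and 1.13e-25), and averaged 4.07 and 4.05 in cecum, against 10.82 and 9.58 in jejunum.

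Breakdown genes gave 1 DET on each side of 13. *MRC2*, a receptor that takes up collagen fragments, was higher in cecum by 1.10 ± 0.22 (adjusted p = 7.48e-05), or 0.99 without bird 2 and 0.96 without bird 6. *PEPD*, the peptidase that splits proline dipeptides left from collagen and from food protein, was higher in jejunum (-2.20 ± 0.12, adjusted p = 2.43e-19). Of 5 measured receptors, the collagen-activated kinase *DDR1* was higher in cecum (1.10 ± 0.095, adjusted p = 5.20e-13) and *ADGRG6*, an adhesion receptor that binds type IV collagen, was higher in jejunum (-1.45 ± 0.11, adjusted p = 5.67e-15), each in 19 birds.

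Most proteoglycans and fibril partners were higher in cecum, with 11 of 14 called in cecum, 1 in jejunum and a median difference of 0.67. Whether they varied with the fibrillar chains across birds was not tested. *LUM*, a small proteoglycan that spaces fibrils, averaged 9.43 ± 0.52 in cecum and 6.95 ± 1.11 in jejunum, a difference of 2.48 ± 0.27 (adjusted p = 1.70e-10). *OGN* of the same family averaged 9.38 ± 0.49 in cecum and 6.95 ± 1.10 in jejunum, a difference of 2.42 ± 0.26 (adjusted p = 1.67e-10). Both were higher in cecum in 19 birds. *PRELP* (1.21 ± 0.17, adjusted p = 8.06e-08), the matrix glycoprotein *TNC* (1.19 ± 0.26, adjusted p = 2.16e-04) and *THBS1* (1.10 ± 0.22, adjusted p = 4.07e-05) were the other DETs, the last one named after its value was seen. With its probe sets averaged *TNC* was 0.62 (adjusted p = 0.00127), below 2-fold.

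Of 11 basement membrane partners, 6 were called in cecum and 1 in jejunum, with a median difference of 0.50. *LAMB1*, a beta chain of the laminins of muscle, vessel and epithelial basement membranes, averaged 8.37 ± 0.28 in cecum and 6.54 ± 0.75 in jejunum (1.82 ± 0.17, adjusted p = 8.70e-12, 19 birds). *LAMB3*, the beta chain of the laminin that epithelial hemidesmosomes hold on to, averaged 5.04 ± 0.48 in cecum and 6.94 ± 0.68 in jejunum, a difference of -1.90 ± 0.18 (adjusted p = 6.38e-12), with the jejunum higher in 19 birds. The laminin alpha chain *LAMA3*, in the same list, was not called (-0.17 ± 0.091, adjusted p = 0.122, limma). Of the chains and the basement membrane list, *COL17A1* and *LAMB3* were thus the only members called in jejunum.

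**Figure D5:**
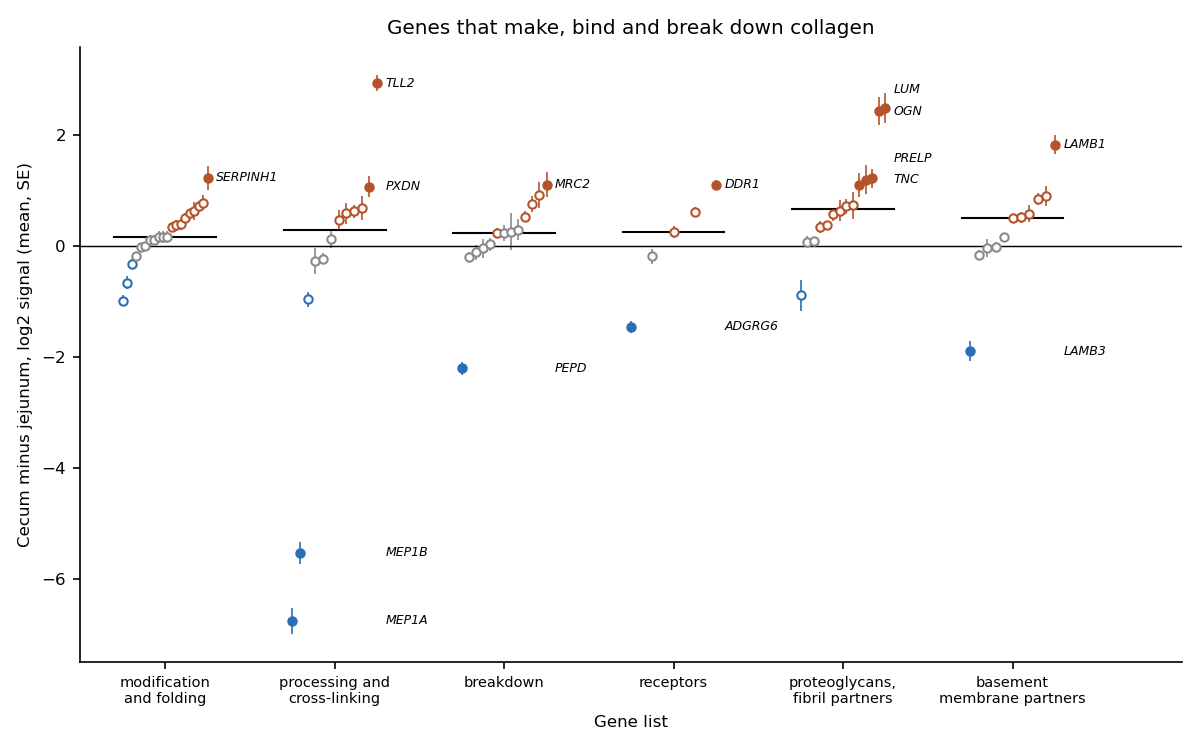
Cecum minus jejunum difference on the log2 scale (y axis, mean with the SE from limma) of 75 measured genes in 6 collagen-related lists (x axis); filled points are DETs, orange in cecum and blue in jejunum, open coloured points were called below 2-fold, grey points were not called, and the bars are list medians. *TLL2* stands at 2.93 and *MEP1A* at -6.75, and the median is highest, at 0.67, for the proteoglycans and fibril partners.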

How the data were processed

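Per the labels, RNA of the mucosa was hybridized to Affymetrix Chicken Gene 1.0 ST arrays, 38 in all. The values deposited by the authors are log2 signals of 18308 probe sets with 2 decimals, made in the Transcriptome Analysis Console. The sources used here do not give the background correction and the normalization. Array medians were between 5.57 and 5.75, and single signals were between 0.85 and 13.8. Nothing was normalized again, and the number of arrays limits the precision. The platform annotation gave 1 symbol to 12300 probe sets, several to 256 and none to 5752. For 30 of the chains a gene ID led to an entry of RefSeq (GRCg7b), which served only to see neighbouring genes.

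The tissue comparison used limma 3.58.1 under R 4.3.3, with tissue as the only term, and the thresholds named in the study's methods. Equal bird numbers were taken as the same bird, which the labels, naming 38 birds, leave unsettled. After subtraction of the tissue mean, the 2 arrays of a bird had a mean r of 0.114 (-0.133 to 0.411, above 0 in 14 birds), and arrays of different birds had -0.006. The members, classes, marker lists and gene lists were chosen with earlier results of these data known. Genes named were all DETs among the chains, the chains of types I, IV, V and VI, *COL17A1*, up to 4 other called chains a side, and up to 4 DETs a side in each list. Correlations and differences between chains were tested with 100000 permutations (Python 3.11.15, numpy 2.4.6, scipy 1.17.1).

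The alternatives were the bird as a block, quantile normalization, median centring, array weights, leaving out probe sets with means under 5, averaging the probe sets of a gene, and leaving out each bird, birds 3 and 19, or 4 arrays. Correlations were repeated with Spearman's rho and without 2 birds, and differences between chains with signed ranks, without birds 3 and 19 and with averaged probe sets. The comparison was tested on simulated data of 18308 probe sets, where limma called 74% of those changed by 0.5, 96% of those changed by 1 and 0.105% of the unchanged ones. The simulated noise was drawn separately for each probe set, so these rates do not cover genes that vary together across birds. No sequences are shown, and the array scans were not used here.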

Additional observations from a re-analysis of the deposited data

How the results depend on the processing

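All 33 chains were refitted under 27 other settings. Of the 18 called chains, 16 passed under each setting that tested them (3 dim ones were not tested where dim probe sets were left out). *COL6A6* was lost with the bird as a block (adjusted p = 0.0593) and under median centring, and *COL24A1* without birds 3 and 19. Over these settings 15 to 19 chains were called in cecum at any fold. The block changed no other call than those of *COL6A6* and *COL8A2*, and the count of DETs in cecum stayed at 5 with it. That count was 3 with several probe sets of a gene averaged, 3 under median centring, 8 without birds 3 and 19, and 2 to 8 when single birds were left out. *COL1A2* and *COL18A1* fell below 2-fold, and *COL1A1*, *COL4A1* and *COL4A2* rose above it, under some of these settings. The count of chains called in jejunum at any fold, 1 in the report and the same for all chains as for the other chains, was 3 with array weights, 2 under median centring, 2 with quantile normalization, 3 without 4 arrays, 3 without birds 3 and 19, and 1 to 2 when single birds were left out. Differences near 0 changed sign. *COL25A1* was -0.0399 with array weights, -0.00895 under median centring, -0.0641 without 4 arrays, -0.0535 without birds 3 and 19 and -0.010 to 0.0761 without single birds. *COL9A1* was -0.0528 to 0.0306 without single birds, and *COL11A1* and *COL20A1* were -0.0194 and -0.0159 without 4 arrays. The cause of these changes was not tested. By rho, without the 2 farthest birds and without birds 3 and 19 the pairs passing across birds numbered 11 in cecum and 13 in jejunum, but by rho *COL6A3* with *COL6A6* was replaced by *COL4A4* with *COL4A5* in cecum. Pairs of chains with unequal differences were 8, and 11 by signed ranks, 12 without birds 3 and 19 and 11 with probe sets averaged, where *COL1A1* minus *COL1A2* turned to 0.32. The 20 named list and smooth muscle genes passed throughout, and *PXDN*, *MRC2* and *TNC* fell below 2-fold in single settings. Dim chains, and a single array per bird and tissue, limit what could be seen.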
